A study of Mus musculus with 18 samples.

Results

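The genes described here encode the proteases that cut the extracellular matrix and cell-surface proteins, and the inhibitors that restrain them. They were taken by symbol: every gene named in the peak lists whose symbol began with Adamts (Adamtsl included), Mmp and a digit, Timp, Adam and a digit, or Serpin. This gave 57 genes with 1439 peaks, of 12634 genes with 338246 peaks in all. The gene name table holds 152 symbols of this kind, and the other 95 had no peak in the lists used here. The lists gave a peak to 12 of 19 Adamts genes, 3 of 5 Adamtsl genes, 12 of 23 Mmp genes, 9 of 33 Adam genes, 20 of 68 Serpin genes and 1 of 4 Timp genes. Of the Timp genes that was Timp2, so Timp1, Timp3 and Timp4 have no value below, and neither does Serping1.

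The peaks mark N6-methyladenosine (m6A) in messenger RNA of 3T3-L1 preadipocytes, fibroblasts of a mouse embryo line that turn into fat-storing adipocytes when induced. The 18 samples were an m6A antibody fraction (IP) and an input for each of 9 peak lists. In 4 lists the cells had received a control siRNA (siCtrl, 2 lists) or an siRNA against the m6A demethylase Fto (siFTO, 2 lists), and the labels name no day for them. The labels of the other 5 lists name no siRNA and give days -2, 0, 2, 5 and 10, the stages of adipogenesis, with 1 list each. The lists hold no RNA levels, so the knockdown could not be checked, and Fto itself had 6 and 6 siCtrl peaks against 5 and 4 in siFTO.

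Matrix metalloproteinases (MMPs), ADAM and ADAMTS proteases share a zinc-dependent catalytic domain. MMPs cut collagens and other matrix proteins, most ADAMs are anchored in the membrane and release the outer parts of surface proteins, and ADAMTS proteases are secreted and cut proteoglycans or trim procollagens. TIMPs block MMPs, serpins mostly trap serine proteases such as those of the plasminogen system, and ADAMTS-like proteins have the binding modules of ADAMTS without the protease. Preadipocytes are known to replace a fibrillar matrix by a basement membrane as they fill with lipid, and these enzymes take part in that change. m6A lies mostly near stop codons and in long exons, in a sequence context around GGAC. The antibody also binds the dimethylated adenosine next to the cap, so a peak at a start site can be of either kind.

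Of 8 preadipocyte genes, Pdgfra, Pdgfrb, Thy1, Col1a1, Col1a2 and Col3a1 had a peak in every list. Dlk1 had none in siFTO and went from 2 on day -2 to 13 on day 0 and 16 on day 10. Fn1 had none on days 5 and 10. Of these 8 genes, 6 had fewer peaks in each siFTO list than in any siCtrl list and 0 had more, where 24.1% and 21.6% of all genes did. Col1a1, for example, had 35 and 34 peaks in siCtrl against 13 and 12 in siFTO. Of 9 adipocyte genes, 8 had a peak on days 2, 5 and 10, against 5 on day -2 and 4 on day 0. Of 14 markers of macrophages, endothelium and muscle, Cd14, Csf1r, Tek and Des had any peak, with at most 4 in a list. The siFTO and day -2 lists stood apart from the other lists. Over all genes, adjoining peaks, which start where the gene's previous peak ends, made up 12.3% and 10.1% of the siFTO peaks and 7.26% of the day -2 peaks, whereas siCtrl had 22.9% and 23.3% and days 0 to 10 had 24.2% to 25.8%. Peaks in the 5' untranslated region (UTR) made up 4.33%, 5.01% and 5.90% of the siFTO and day -2 lists, against 11.2% to 14.0% of the others. How far these features of whole lists enter the values below was not tested. They touch the peak numbers, the start-site peaks and the shares of transcript parts alike. A peak is called on RNA that is present, so peak number follows the amount of a transcript as well as its methylation. In such bulk samples fewer expressing cells and less RNA per cell cannot be told apart either.

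The sequences at start sites are shown first, because peaks there differed between lists. A peak reached the first 50 transcribed bases of a RefSeq start site in 15 of the 57 genes (38 genes had a start site in the table). The 30 bases from position 15 to 44 after the start are printed for the 3 genes whose peaks covered them in all 9 lists, and then for the 4 genes with a start-site peak in both siCtrl lists and neither siFTO list. Capitals mark GGAC, read on the transcribed strand (RefSeq, GRCm38.p6).
Adam10: ggggaagggaggaaggaagaggccgagggg
Adamts1: gcagctccgagctaggtgctatcgcaaggc
Mmp14: gagGGACcaaaggagagcagagagggcttc
Adam23: tccttaggcccggcagcaacccccgcagtc
Mmp11: ggcctggcccagcaggcccagcagccccgg
Serpine2: gcggcccggccggctagtgcagtggttgca
Timp2: ccgccagccaccgagaggaggagcagagga
These windows lie at chr9:70678996-70679025 (+), chr16:85803070-85803099 (-), chr14:54431612-54431641 (+), chr1:63445905-63445934 (+), chr10:75932459-75932488 (-), chr1:79858622-79858651 (-) and chr11:118355368-118355397 (-), in that order. Peaks covered the whole printed window in 4 of 6 lists for Adam23, 3 of 6 for Mmp11, 5 of 6 for Serpine2 and 2 of 4 for Timp2. GGAC stood in the 50-base window of 4 of the 15 genes, Mmp14, Mmp15, Adamts14 and Serpinf1. It stood in 18.9% of all 32851 RefSeq windows of this length and in 22.6% of the 3851 genes with a start-site peak, so these 15 genes lie near both shares.

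**Figure D1:**
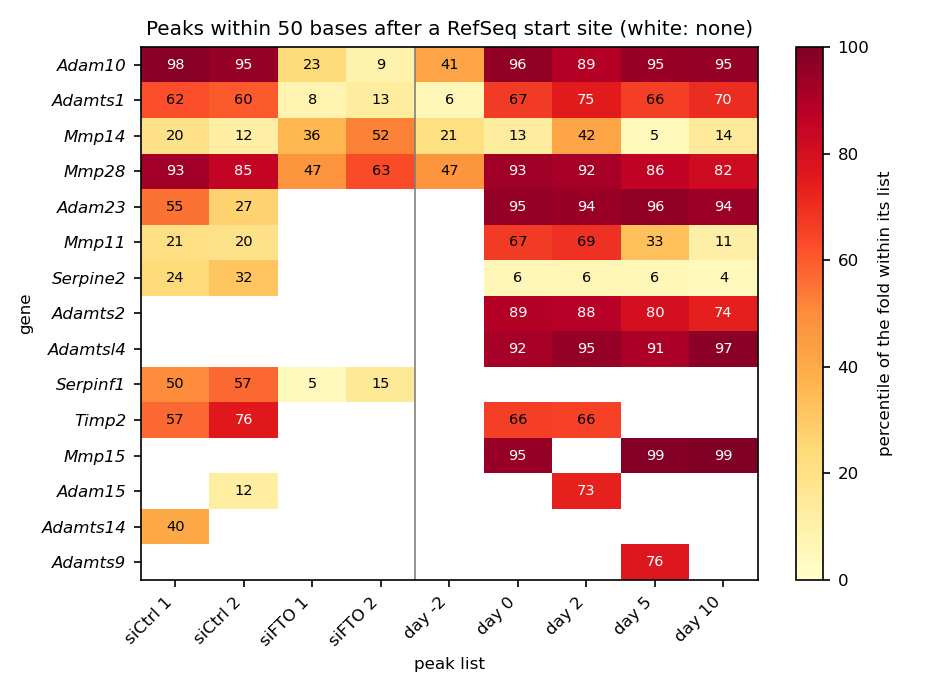
Start-site peaks of the 15 genes in the 9 lists. Each cell gives the percentile of the peak's fold within its own list (colour and number), and white cells held no such peak. The 4 genes at the top had a start-site peak in every list, and Adam23, Mmp11 and Serpine2 had one in every list except siFTO and day -2.

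Start-site peaks of these genes were scarcer in the siFTO and day -2 lists than in the rest. The siCtrl lists held 10 and 10 of the 15, the siFTO lists 5 and 5, and the day -2 list 4, while days 0, 2, 5 and 10 held 11, 11, 11 and 10. Of the 3851 genes with a start-site peak in any list, siCtrl held 58.7% and 60.1%, siFTO 19.6% and 18.0%, day -2 18.0% and days 0 to 10 69.5% to 76.1%, so siFTO and day -2 held the lowest shares over all genes too. Adam23, Mmp11, Serpine2 and Timp2 lost the peak in siFTO, which was 4 of 11 genes with one in an siRNA list, and no gene gained one. Over all genes 51.5% lost theirs and 1.73% gained one, so the loss was no more frequent here than elsewhere. Adam10, Adamts1, Mmp14 and Mmp28 kept theirs in all 9 lists.

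Adam10 (ENSMUSG00000054693) encodes a sheddase of the Notch receptors and many other surface proteins. Its start-site peak had folds of IP over input, as the authors computed them, of 18.9 and 14.2 for siCtrl, 2.38 and 1.74 for siFTO, 4.17 at day -2, and 56.8, 24.1, 45.7 and 54.0 on days 0, 2, 5 and 10. It stood at percentiles 97.8 and 95.5 of its siCtrl lists, 23.5 and 9.19 of its siFTO lists and 41.5 of the day -2 list, and from 89.0 to 95.9 on days 0 to 10. The lists differ in length and scaling, so these ranks place the peak within each list and are not a measured change.

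Adamts1 (ENSMUSG00000022893), a secreted protease that cuts aggrecan and versican, showed the same order. Its start-site peak stood at percentiles 62.3 and 59.8 for siCtrl, 8.36 and 12.6 for siFTO, 5.64 at day -2 and 66.0 to 74.7 on days 0 to 10. Mmp28 (ENSMUSG00000020682), the secreted MMP epilysin, stood at 92.9 and 85.4 for siCtrl, 47.1 and 63.2 for siFTO, 46.9 at day -2 and 81.7 to 93.3 afterwards. Mmp14 (ENSMUSG00000000957), a membrane-anchored collagenase that also activates Mmp2, differed: its start-site peak was at 19.9 and 11.5 for siCtrl, 36.2 and 52.2 for siFTO, 21.2 at day -2 and 4.77 to 41.6 on days 0 to 10. In 3 of these 4 genes, then, the siFTO and day -2 ranks lay below the ranks of all other lists, and in Mmp14 they did not.

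Within a list the highest 5' UTR fold of a gene can be set against its highest 3' UTR fold. Among the genes with both, the 5' UTR fold was the higher in 6 of 8 and 5 of 7 for siCtrl, in 0 of 5 and 3 of 7 for siFTO, in 1 of 3 at day -2, and in 8 of 10, 6 of 10, 6 of 9 and 5 of 8 on days 0, 2, 5 and 10. Over all genes with both the shares were 62.3% and 59.3% for siCtrl, 40.5% and 44.2% for siFTO, 54.0% at day -2 and 75.6% to 81.0% on days 0 to 10, with the lowest in the siFTO lists. In Adamts1 the order changed along the stages: its 5' and 3' UTR folds were 1.69 and 11.25 on day -2 and 8.88 and 1.01 on day 0. Later they were 11.5 and 0.99 (day 2), 9.29 and 1.36 (day 5) and 11.42 and 1.31 (day 10). The 3' UTR folds of days 0, 2, 5 and 10 stood at percentiles 0.032, 0.034, 0.887 and 0.390 of their lists. There the IP hardly differed from the input, so these are among the weakest peaks listed. In siFTO they were 1.70 and 3.78 in replicate 1 and 1.89 and 5.03 in replicate 2, while siCtrl had no 3' UTR peak. Mmp14 kept the higher fold in its 3' UTR in all 9 lists.

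Adamts2 (ENSMUSG00000036545), which removes the amino-terminal propeptide of fibrillar procollagens, had its 5' and 3' peaks in different lists. The start-site region (chromosome 11, 50601976 to 50602300, mm10) was held on days 0, 2, 5 and 10, with folds of 26.5, 22.6, 15.9 and 13.0, and in no siRNA or day -2 list. The 3' UTR region (50804226 to 50804425) was held by siCtrl with folds of 3.69 and 4.40, by siFTO with 7.31 and 8.25 and by day -2 with 6.73, and on no later day. Adam17 (ENSMUSG00000052593), the sheddase of tumour necrosis factor, had a 3' UTR region at chromosome 12, 21324426 to 21324575, in the same 5 lists, with folds of 1.55 and 1.58 for siCtrl, 3.69 and 4.44 for siFTO and 2.24 at day -2. For both genes the siCtrl lists thus shared a 3' region with siFTO and day -2 that days 0 to 10 lacked. A neighbouring 3' UTR region of Adam17 (21324226 to 21324400) went otherwise. All siRNA lists held it, as did days 0, 2, 5 and 10 with folds of 2.36, 2.01, 1.99 and 1.82, but not day -2.

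**Figure D2:**
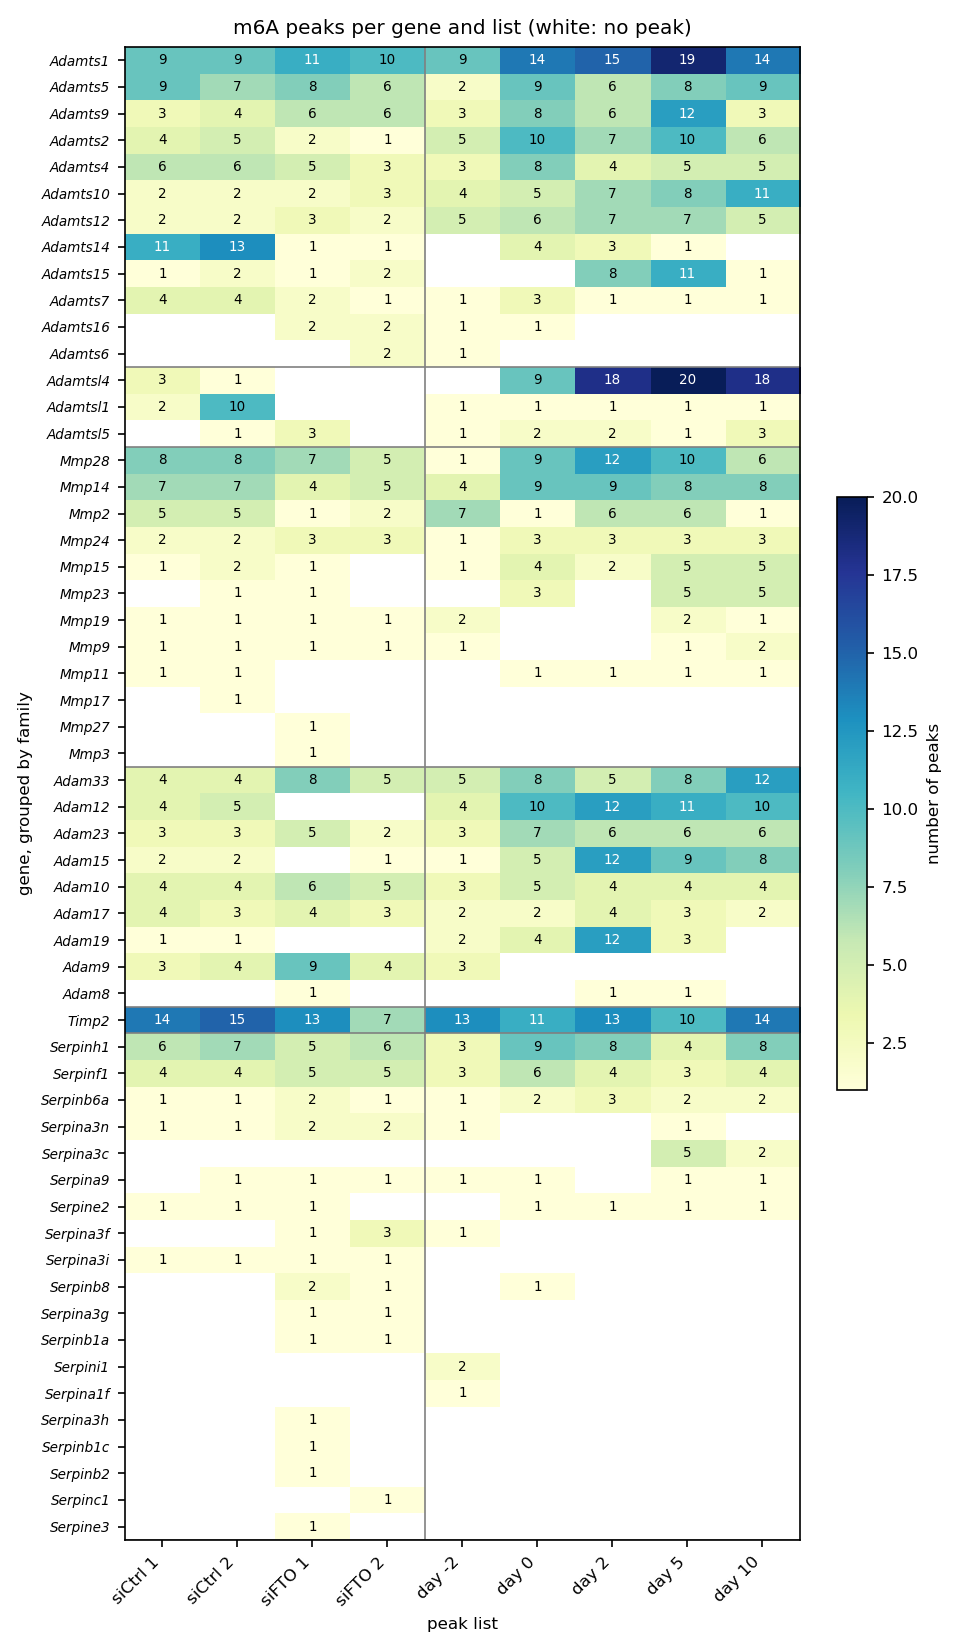
Number of m6A peaks per gene in the 9 lists, grouped by family (colour and number, white for none). 1 of the 57 genes is not drawn. Adamts1, Timp2, Mmp14 and Mmp28 had peaks in every list, and Serpinf1, Serpinh1 and Serpinb6a were the serpins with peaks in every list.

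A peak in all 9 lists was found for 20 of the 57 genes (35.1%, against 44.3% of all genes), and in 1 list alone for 10 (17.5%, against 10.5%). The median gene had 17 peaks summed over the lists, the same as over all genes. The 20 were 8 Adamts genes (Adamts1, 2, 4, 5, 7, 9, 10 and 12), Adam10, Adam17, Adam23 and Adam33, Mmp2, Mmp14, Mmp24 and Mmp28, Timp2, and the serpins Serpinf1, Serpinh1 and Serpinb6a. Of the 10 found once, 7 were serpins, among them Serpini1 with 2 peaks on day -2, and the others were Mmp3, Mmp17 and Mmp27, with 1 peak each. The peak of Mmp3 (stromelysin-1) was in an intron, in siFTO 1, with a fold of 13.5. These genes made up 0.381% and 0.388% of the peaks of the siCtrl lists, 0.360% and 0.346% for siFTO, 0.393% at day -2, and 0.494%, 0.517%, 0.499% and 0.415% on days 0, 2, 5 and 10. Exact Clopper-Pearson 95% intervals were 0.321% to 0.476% on day -2 and 0.449% to 0.592% on day 2, and cover counting error only.

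Knockdown of Fto was set against the control siRNA to ask which genes carry more or fewer peaks when a demethylase is depleted. Of 54 genes with a peak in the 4 siRNA lists, 12 had more peaks in each siFTO list than in any siCtrl list, where 21.6% of all 11482 genes did (22.2% here). Fewer peaks in each siFTO list were found for 14 genes, where 24.1% of all genes did (25.9% here), so neither count stood out from the lists as a whole. The genes with fewer peaks included the procollagen N-proteinases Adamts2 and Adamts14, gelatinase A (Mmp2) and Timp2 but no serpin. More peaks were found for 6 serpins, while the groups overlapped for 11 serpins. The calls of Adamts2, Mmp2, Timp2 and most of the 6 serpins ended at equal list length (below), so no split between families is drawn from them. Of the membrane-type MMPs, Mmp14 had fewer peaks and Mmp24 more, while the groups overlapped for Mmp15 (1 and 2 against 1 and 0) and Mmp17 (0 and 1 against 0 and 0). A two-sided exact permutation test over the 6 ways to assign 4 lists gave p = 0.333 for each of these 26 genes, the smallest p this design allows. The Benjamini-Hochberg value over all genes was 0.730 (adjusted from the exact permutation p), so no gene could pass a threshold. The median difference in peak number, siFTO minus siCtrl, was 0.5 for the 54 genes and 0 over all genes, while the mean difference had the other sign, -0.361 for the 54 genes and -0.191 over all. Adjoining peaks made up 12.7% and 10.2% of these genes' peaks in siFTO, against 20.4% and 21.1% in siCtrl. The split changed when lists were cut to equal length, a cut that also removes the lowest folds. With every list cut to the 26485 highest folds, 7 genes had fewer peaks (20.9% of all genes) and 10 had more (24.7%), and of these 6 and 6 were among those named here. The calls that ended at equal length were those of Adam15, Adam19, Adamts2, Mmp2, Mmp11, Mmp14, Mmp28 and Timp2 for fewer peaks, and of Adamts1, Mmp24, Serpina3f, Serpina3g, Serpina3n and Serpinf1 for more. Without siFTO replicate 2, 25 genes had more, a call that then rested on siFTO replicate 1 alone. The share over all genes was not computed for that setting.

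**Figure D3:**
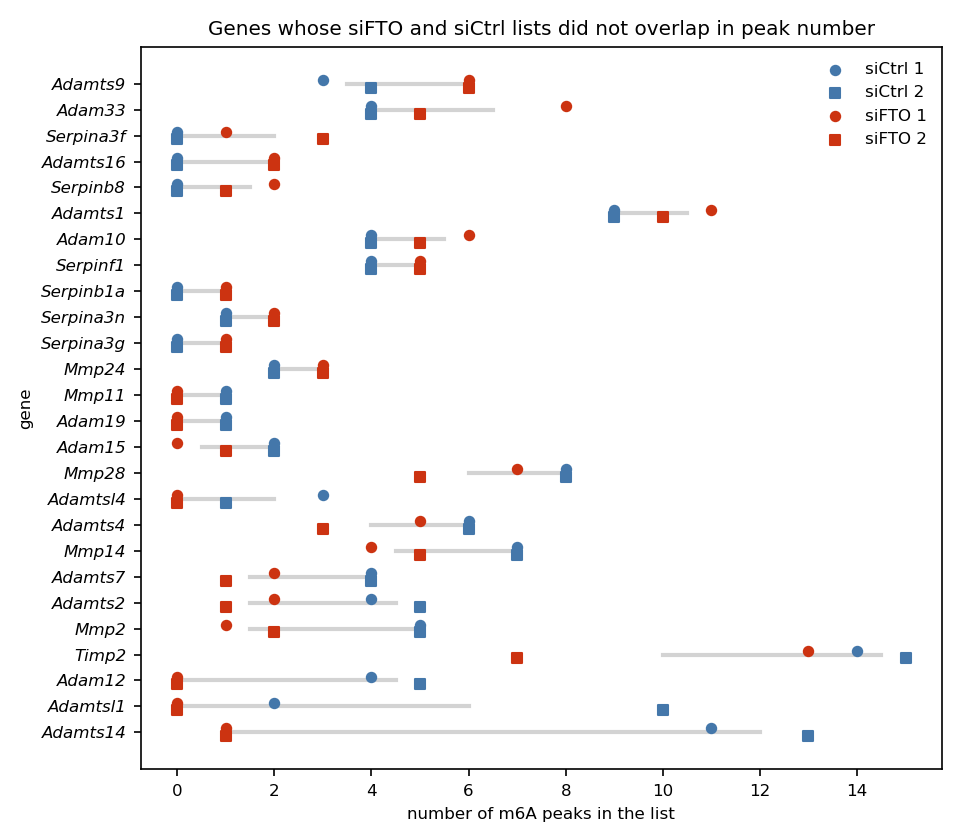
Peak numbers in the 4 siRNA lists for the 26 genes whose groups did not overlap (circles, replicate 1; squares, replicate 2; grey lines join the group means). Adamts14 lay farthest apart, at 11 and 13 for siCtrl against 1 and 1 for siFTO.

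Adamts14 (ENSMUSG00000059901), a procollagen N-proteinase related to Adamts2, carried 11 and 13 siCtrl peaks against 1 and 1 in siFTO. All 6 of its lost regions, those in both siCtrl lists and neither siFTO list, lay in exons, 5 in the coding sequence and 1 in the 3' UTR. The one nearest the start (chromosome 10, 61270851 to 61271100) had folds of 4.42 and 10.4 in siCtrl and 3.23 on day 0, and the other 5 were in siCtrl alone of the 9 lists. Adamts14 had no peak on days -2 and 10 and 4, 3 and 1 on days 0, 2 and 5, so the siCtrl lists held more of its peaks than any stage did. Adamts2 carried 4 and 5 siCtrl peaks against 2 and 1 in siFTO. Adamts7, a protease of cartilage oligomeric matrix protein, had 4 and 4 against 2 and 1, and Adamts4, an aggrecanase, 6 and 6 against 5 and 3. Counting runs of adjoining peaks as 1 ended the calls for Adamts4 and Mmp28 among the genes with fewer peaks, and for Mmp24 and Serpinf1 among those with more.

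Adam12 (ENSMUSG00000054555), a membrane metalloprotease of mesenchymal cells, carried 4 and 5 siCtrl peaks against none in siFTO. Its 4 lost regions were each held also on day -2 and on every later day. The strongest in siCtrl, over the 5' UTR (chromosome 7, 134224776 to 134225175), had folds of 4.96 and 5.55 for siCtrl, 2.73 at day -2 and 11.6, 11.4, 32.2 and 16.9 on days 0, 2, 5 and 10. Adam12 was therefore absent from the siFTO lists alone. Adam19, a related membrane protease, had 1 and 1 siCtrl peaks against none, and Adam15 had 2 and 2 against none and 1.

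Among the ADAMTS-like genes, Adamtsl1 and Adamtsl4 had no peak in either siFTO list. Adamtsl1 (ENSMUSG00000066113) carried 2 and 10 siCtrl peaks. Its siCtrl lists had 1 region in common, a coding one (chromosome 4, 86342351 to 86342800) with folds of 73.7 and 294.5, the second being the highest fold of its list. Days 0, 2, 5 and 10 also held that region. Adamtsl4 (ENSMUSG00000015850), a protein of fibrillin microfibrils, had 3 and 1 against none.

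Among the MMPs, Mmp2 (ENSMUSG00000031740), the gelatinase A that cuts basement membrane collagen, carried 5 and 5 siCtrl peaks against 1 and 2 in siFTO. Its regions lost in siFTO were both coding (chromosome 8, 92832751 to 92832875 and 92852551 to 92852750), with siCtrl folds of 1.09 to 1.64, no higher than percentile 7.13 of their lists. Mmp14 had 7 and 7 against 4 and 5, Mmp28 8 and 8 against 7 and 5, and Mmp11 (stromelysin-3) 1 and 1 against none. At equal list length none of these 4 MMP calls was kept, nor was that of Timp2. Timp2 (ENSMUSG00000017466), the inhibitor that Mmp14 binds when it activates Mmp2, had 14 and 15 against 13 and 7. Mmp24, another membrane-type MMP, had 2 and 2 against 3 and 3, and was the MMP with more peaks. Its peaks lay in 1 region of the 3' UTR (chromosome 2, 155817851 to 155818300) in all 9 lists, and as a run it counted as 1 in each list. That region also lies within the span of BC029722.

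The genes with more peaks in siFTO were led by Adamts9 and Adam33. Adamts9 (ENSMUSG00000030022), a protease of versican, carried 3 and 4 siCtrl peaks against 6 and 6 in siFTO. Gained coding regions, held by siFTO 1 and 2 and by no siCtrl list, lay at chromosome 6, 92894226 to 92894400 and 92901351 to 92901450, with folds of 8.96 and 7.79, and 7.83 and 6.90. Both were held without an siRNA too, on days -2, 0 and 5. The folds there were 4.22, 2.5 and 4.0 for the first and 5.72, 2.02 and 2.94 for the second. Adam33 had 4 and 4 against 8 and 5, with 6 of its siFTO regions in introns, and Adam10 4 and 4 against 6 and 5. Adamts1 had 9 and 9 against 11 and 10, with gained regions in the coding sequence and the 3' UTR. Its 3' UTR region (chromosome 16, 85794801 to 85795125) had folds of 3.78 and 5.03 in siFTO and 11.25 on day -2. Days 0 to 10 held it too, with folds of 0.99 to 1.36. Without intronic peaks the calls for Adam10, Adam33, Adamts9 and Serpinf1 ended.

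Adamts16 had 2 and 2 siFTO peaks and none in siCtrl, with 1 region in both siFTO lists (chromosome 13, 70728801 to 70728925, coding, folds of 6.79 and 4.85, within the span of Gm36607). The serpins with more peaks were Serpina3f with none against 1 and 3, Serpinb8 with none against 2 and 1, Serpina3g and Serpinb1a with none against 1 and 1, Serpina3n with 1 and 1 against 2 and 2, and Serpinf1 with 4 and 4 against 5 and 5. Serpinf1 encodes PEDF, a secreted serpin that inhibits no protease. Serpina3f, Serpina3g and Serpina3n belong to a cluster of closely related copies on chromosome 12, and reads may not be separable between them, or between Serpinb1a and its copies. Serpina3g had folds of 1.65 and 1.56, at percentiles 7.26 and 5.51 of the siFTO lists. Serpinb8 had no region common to the siFTO lists. By gene, 5 were gained and 5 lost, where 8.64% and 4.35% of all genes were (9.26% each way here).

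At the level of regions, 21 were gained and 38 lost of the 207 these genes had in the siRNA lists, where 12.3% and 14.5% of all regions were (10.1% and 18.4% here). All 4 lists shared 42 regions (20.3%, against 31.0% of all). Lost regions were coding in 25 cases, and 5 lay in a 3' UTR, 4 in a 5' UTR and 4 in an intron. Gained regions were coding in 13 cases, intronic in 4, and 3 lay in a 3' UTR and 1 in a 5' UTR. Day -2 shared 9 of the 21 gained regions (42.9%, against 36.1% of all gained regions) and 8 of the 38 lost ones (21.1%, against 15.5%). Days 0, 2, 5 and 10 shared 33.3%, 23.8%, 33.3% and 23.8% of the gained regions, where 11.3%, 14.2%, 16.9% and 18.2% of all gained regions were shared. Of the lost regions they shared 65.8%, 65.8%, 65.8% and 68.4%, where 70.2%, 67.6%, 75.9% and 77.1% of all lost regions were shared. Without siFTO replicate 1 the gained regions were 40, and without siFTO replicate 2 they were 60. Each of these counts asks for a peak in the remaining siFTO list alone, so a rise follows from the criterion.

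The genes' peaks lay in other parts of the transcript in siFTO than in siCtrl. In siFTO 29.9% ± 5.57 (SD, n = 2) were intronic, against 12.1% ± 0.581 in siCtrl, a difference of 17.8 percentage points where all peaks gave 6.96. The parts of a list add up to a whole, so a higher intron share by itself lowers the other shares. The coding share was 42.3% ± 0.913 against 54.2% ± 2.38, a difference of -11.9 points where all peaks gave -1.51. It is not a result apart from the intron share, and the coding share without intronic peaks was not computed. The 5' UTR share was 10.4% ± 3.69 against 16.0% ± 3.13, a difference of -5.68 points where all peaks gave -6.88, and the lowest siCtrl value, 13.8%, lay just above the highest siFTO value, 13.0%. The 3' UTR share was 17.5% ± 2.79 against 17.6% ± 0.173. The intron shares of the siFTO lists lay above both siCtrl lists by more than the spread within either group. The day -2 list had the highest intron share, 40.4% (exact interval 30.9% to 50.5%), against 21.4% of all its peaks, and days 0 to 10 had 13.6% to 17.3%. The interval takes each peak as independent, while many peaks lay on the same gene. It can thus be too narrow, and it is no test against all peaks.

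**Figure D4:**
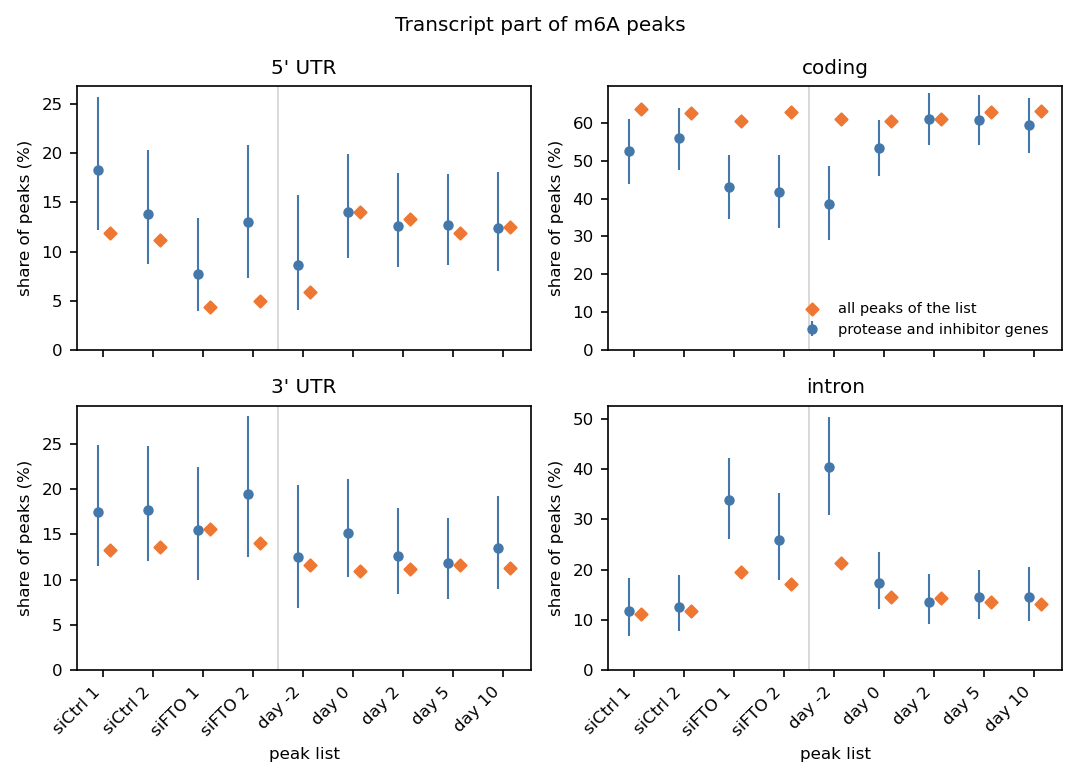
Share of peaks in each transcript part, for the protease and inhibitor genes (circles) and for all peaks of each list (diamonds). Bars are exact 95% intervals that take peaks as independent, though many lay on the same gene. The intron shares of the genes were 33.8% and 25.9% in siFTO and 40.4% on day -2, above those of all peaks there (19.5%, 17.1% and 21.4%), while in the other lists the difference was under 3 points.

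The intronic peaks seldom recurred between lists. Of 96 intronic regions on these genes, 59 were found in 1 list alone (61.5%, against 55.0% of all intronic regions), 30 of them in an siFTO list and 21 on day -2. The siFTO lists shared 11 of the 52 intronic regions either held (21.2%, against 34.4% over all genes), whereas the siCtrl lists shared 13 of 16 (81.3%, against 71.8%). Coding regions were shared by the siFTO lists in 32 of 58 cases (55.2%, against 68.8%) and by the siCtrl lists in 53 of 68 (77.9%, against 82.8%). The median fold of these genes' intronic peaks was above that of their coding peaks in every list, at 16.8 against 2.085 on day -2. What raised the intronic folds was not tested. On day -2 Adamts12, a secreted protease of cartilage proteins, had 4 intronic regions with folds of 50.6 to 360, of which day 0 shared 1. Mmp2 had 5 intronic regions that day, with folds of 4.78 to 19.0, in no other list.

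Of the 96 intronic regions, 6 were held by all 9 lists (6.25%, against 3.70% of all intronic regions). They lay on Timp2, Adam33, Adamts1 and Serpinf1. Timp2 had 2 in all 9 lists, at chromosome 11, 118332676 to 118332850 and 118332926 to 118333850, the longer with folds of 10.6 and 10.0 for siCtrl, 31.7 and 27.8 for siFTO, 18.2 at day -2 and 11.57, 19.98, 13.21 and 6.58 on days 0, 2, 5 and 10. They also lie within the span of the RefSeq gene Cep295nl, and the counting is not stated to use strand, so their host is uncertain. Adam33 had 2, at chromosome 2, 131057326 to 131057575 and 131057951 to 131058375, Adamts1 had 1 at chromosome 16, 85800876 to 85801125, and Serpinf1 had 1 at chromosome 11, 75415201 to 75415425. Of the 343 regions of the 57 genes, 31 lay within another RefSeq gene.

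Between stages a difference was called where the peak number plus 1 differed at least 2-fold, without a test. From day -2 to day 0, more peaks were called for 18 of 43 genes, where 33.2% of all genes were called (41.9% here), and fewer for 9, where 22.8% were (20.9% here). The day -2 list was the shortest, with 26485 peaks. With all lists at that length the balance turned over, to 6 genes with more (24.1% of all genes) and 12 with fewer (35.4%). Adamtsl4 went from 0 to 9 peaks, Mmp28 from 1 to 9, Adamts14 from 0 to 4, Mmp23 from 0 to 3, Adamts5, an aggrecanase, from 2 to 9, and Adam15 from 1 to 5. Mmp15, Adamts9 and Serpinh1, the collagen chaperone Hsp47, went from 1 to 4, 3 to 8 and 3 to 9, and Adam12 from 4 to 10. Mmp2 went the other way, from 7 to 1, as did Adam9, from 3 to 0, and Mmp19 and Serpini1, from 2 to 0. Of the 7 day -2 peaks of Mmp2, 5 were the intronic ones, and its 5' UTR region was held on both days.

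**Figure D5:**
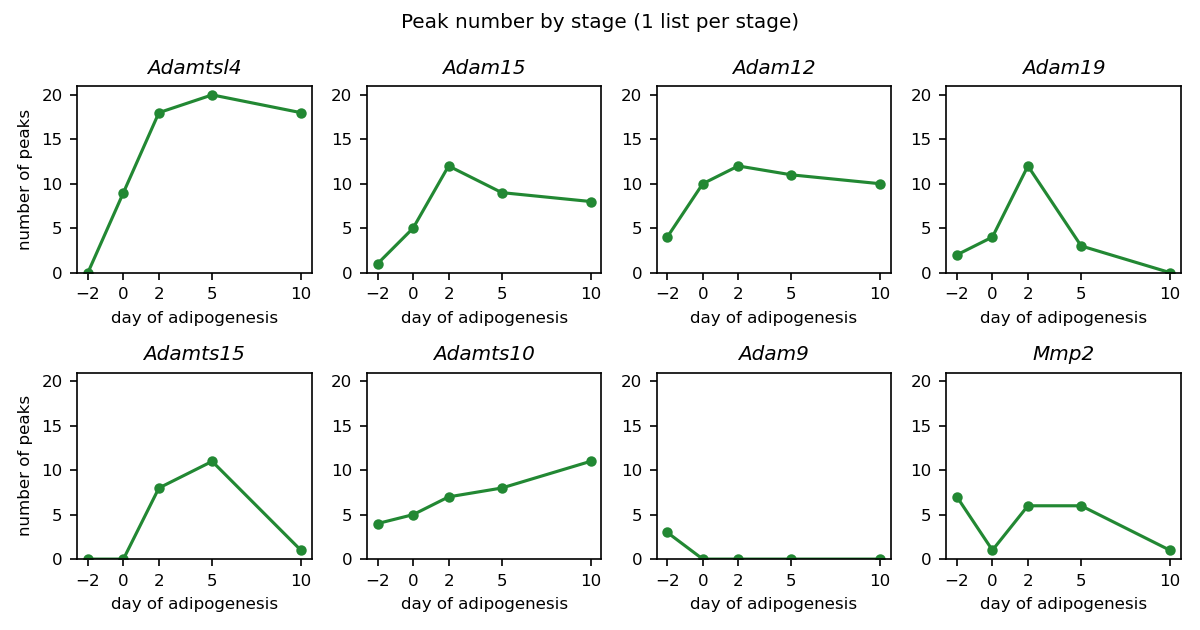
Peak number on days -2, 0, 2, 5 and 10 for 8 of the genes, chosen after their values were seen (1 list per stage, so no error can be given). Adamtsl4 went from 0 peaks to 18 to 20 from day 2 on, Adam19 stood at 12 on day 2 and 0 on day 10, and Adam9 had peaks on day -2 and on no later day.

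Day 10 was set against day 0 to follow the whole of differentiation. More peaks on day 10 were called for 5 of 39 genes, where 16.7% of all genes were called (12.8% here), and fewer for 6, where 5.09% were (15.4% here). With equal list lengths the counts were 3 of 32 genes (9.38%, against 13.8% of all genes) and 11 (34.4%, against 13.7%). The median ratio was 1 for these genes and 1.06 over all. Of the genes with more, Serpina3c, a serpin of the alpha-1-antichymotrypsin cluster, had none before day 5, 5 on day 5 and 2 on day 10. Mmp9, the gelatinase B, had none on days 0 and 2, then 1 and 2. Adamts10, a protease linked to fibrillin microfibrils, had 5, 7, 8 and 11 on days 0, 2, 5 and 10. Adamts15 had 0, 8, 11 and 1, and Mmp19 0, 0, 2 and 1. The fewer genes were Adam19 (4, 12, 3 and 0), Adamts9 (8, 6, 12 and 3), Adamts14 (4, 3, 1 and 0), Adamts7 (3, 1, 1 and 1), and Adamts16 and Serpinb8, each with 1 on day 0 and none later.

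The largest peak number of these genes in any list was that of Adamtsl4, with 9, 18, 20 and 18 peaks on days 0, 2, 5 and 10. Its peaks covered the 5' UTR, the coding sequence and an intron-annotated region at a start site, and the region at chromosome 3, 95685451 to 95685675 in the 5' UTR had folds of 11.1, 54.4, 62.2 and 43.3. Adamts15 (ENSMUSG00000033453), an aggrecan protease, had its 11 peaks of day 5 in 8 regions with folds of 14.8 to 116.7, of which 1, a coding one (chromosome 9, 30902001 to 30902550), was held on day 10, with a fold of 22.4. All 4 siRNA lists held it too, with folds of 13.1 and 14.2 for siCtrl and 28.6 and 23.0 for siFTO. Mmp15, a membrane-type MMP, had 4, 2, 5 and 5 peaks, and its 5' UTR region at chromosome 8, 95352301 to 95352675, had folds of 94.8, 80.6, 122 and 183, from percentile 97.8 to 99.2. Serpine2, protease nexin-1, had 1 on each of these days, and Timp2 had 11, 13, 10 and 14.

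Day 2 set against day 0 gave 5 genes with more and 5 with fewer of 37 (14.0% and 8.52% of all genes), with Adam19, Adam15 (5 to 12) and Mmp2 (1 to 6) among the first. Day 5 against day 2 gave 7 with more and 2 with fewer of 39 (11.7% and 9.37% of all genes), and day 10 against day 5 gave 1 with more and 8 with fewer (9.94% and 6.12% of all genes). Those 8 included Mmp2 (6 to 1), Adamts15 (11 to 1) and Adamts9 (12 to 3). These comparisons share the lists of neighbouring days, so a day with many peaks enters 1 comparison as the later list and the next as the earlier.

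Other genes of pericellular proteolysis were counted for comparison, 36 in all, of which 23 had a peak. Of 22 in the siRNA lists, 5 had more peaks in siFTO and 5 fewer, where 21.6% and 24.1% of all genes did. Lrp1, the receptor that clears protease-inhibitor complexes, carried 34 and 33 siCtrl peaks against 11 and 7 in siFTO, and Furin, which activates pro-MMPs and pro-ADAMs, 11 and 10 against 2 and 3. Ctsd, Htra3 and Loxl3 had fewer too. Plaur, the urokinase receptor, had none against 2 and 2, and Ctsb 1 and 1 against 2 and 3, with Ctsl, Htra1 and Loxl2 also higher. From day -2 to day 0, 8 of 21 had more and 4 fewer, where 33.2% and 22.8% of all genes did. From day 0 to day 10, 2 of 20 had more and 1 fewer, where 16.7% and 5.09% of all genes did.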

How the data were processed

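m6A peaks of 9 IP and input pairs of 3T3-L1 cells were analysed. The submitters' processing notes name TopHat2 2.0.9, bedtools and the build mm10. The caller, thresholds and depth scaling behind the peaks were not stated there. Each deposited peak has, per the file headers, an enrichment, read here as a fold (ratio) of IP over input computed by the authors, and it was used only within a list. Depth is unknown. Lists were matched to groups by name, and the first siCtrl and siFTO lists, which carry no number, are called replicate 1. Nothing says that replicates came from separate cultures, and the p-values then speak only of the spread among the lists, which may be technical. Mitochondrial lines, 0 to 21 a list, held no fold and were left out. Of 12634 gene IDs, 12492 had a symbol. Peaks sharing at least 1 base were merged into regions, printed counting from 1. Genes, gene lists, naming rule and tests were chosen with earlier results of these data known. Named genes were those with non-overlapping siRNA groups, the largest stage ratios, peaks in every list, or a place on a list of well-known members; others, such as Adam23, Adamts12 and the start-site genes, were named after their values were seen. The siRNA calls of more and fewer peaks were tested on simulated counts, with large changes planted in genes of higher siCtrl peak number. Genes with few peaks, and the calls for stages, regions and genes gained or lost, were not covered by it. Alternatives were runs counted as 1, equal list lengths, folds at or above the median, no introns, 50% overlap, a 3-fold ratio and each siRNA list left out. Python 3.11.15, pandas 2.3.3 and scipy 1.17.1 were used. The values of 1 of the genes are counted in the totals and not reported here by name.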

Additional observations from a re-analysis of the deposited data

How the results depend on the processing

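Of 67 recomputed values, 47 stayed within 1.5 times a count or within 1 SD of a share, and no share changed sign. With equal list lengths the genes with fewer peaks in siFTO were 7 in place of 14, the lost regions 24 in place of 38, and the 5' UTR difference -9.77 points in place of -5.68. Genes with more peaks on day 0 than day -2 were then 6 in place of 18, and for day 10 against day 0 there were 3 with more and 11 with fewer in place of 5 and 6. With folds at or above the list median, 4 genes had more and 8 fewer peaks in siFTO, 9 regions were gained and 16 lost, the 5' UTR and intron differences were -9.47 and 27.3 points, and 3 genes had more peaks on day 10. At a ratio of 3, 6 genes had more and 4 fewer on day 0 than day -2, and 2 more and 2 fewer on day 10 than day 0. The equal-length and median settings keep fewer peaks and the ratio of 3 asks for a larger difference. No other cause of these shifts was tested. Among the alternative settings, shares over all genes were computed for equal list lengths alone. Whether the other shifts are particular to these genes was not tested. Leaving out each siRNA list in turn gave 13 to 25 genes with more peaks, 15 to 18 with fewer, 23 to 60 regions gained and 42 to 57 lost, 5' UTR differences of -8.29 to -3.07 and intron differences of 13.8 to 21.7 points. A call then asks fewer lists to agree. The higher counts of genes and regions thus follow from the criterion and say nothing about how stable the calls are. No paired analysis was possible because the first siCtrl and siFTO lists carry no replicate number. Few lists, and folds without read counts, limit the precision of each value.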
